A study of Homo sapiens with 6 samples.

Results

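The genes described here are the collagens, the laminins and the integrins measured in H460 cells, a human non-small cell lung cancer line, with and without ionising radiation. Members were taken by gene symbol, as collagen chains (COL followed by type and chain), laminin chains (LAMA, LAMB, LAMC) and integrin subunits (ITGA, ITGB), with antisense genes and the integrin-binding proteins ITGB1BP1 and ITGB3BP left out. The rule found 76 genes, of which 41 were collagens, 8 laminins and 27 integrin symbols, among 22465 genes with a single symbol on the array. One integrin symbol, ITGBL1, codes for an integrin beta-like protein and not for a receptor subunit. A gene with several features (probe groups) was represented by the brightest, which applied to 3 members.

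Total RNA was measured on Affymetrix Human Transcriptome Array 2.0 chips from 3 control cultures that received no radiation and 3 cultures irradiated with 7 Gy. The titles name the replicates as biological, the cells are 1 unmodified line, and the sources used here do not give the interval between irradiation and RNA extraction. Values are log2 signals, so a difference of 1 is a doubling. A member was called when its adjusted p was under 0.05 (limma, two-sided, Benjamini-Hochberg over 67528 features), and "rose" or "fell" is used of called genes. In bulk RNA, fewer cells of a type and less RNA per cell cannot be told apart.

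Collagens are secreted triple-helical proteins that form fibrils, sheets or filaments outside the cell. Laminins are cross-shaped trimers of an alpha, a beta and a gamma chain that, with the type IV collagen network, make up the basement membrane under epithelia. Integrins are alpha-beta heterodimers in the plasma membrane that bind these matrix proteins and couple them to the actin cytoskeleton.

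The 6 array profiles were closely alike, with Pearson correlations across features from 0.994 to 0.998 and no array apart from its group. The known p53 responders moved in irradiated cells, with GDF15 higher by 2.93, MDM2 by 2.06 and CDKN1A by 0.77 on the log2 scale. Among fixed cell type markers, the epithelial keratins KRT8, KRT18 and KRT19 had mean signals from 9.93 to 10.86 in either group. The epithelial adhesion gene EPCAM lay at 4.04, near the median of the array's background controls (3.74). CDH1, CLDN7 and CLDN4 lay between, at 5.15, 5.97 and 6.36. Of the 7 epithelial markers, limma called 0, and 2 were at an unadjusted p under 0.05, KRT18 with a difference of -0.15 and KRT19 with 0.17. Endothelial (5 genes), leukocyte (6) and platelet (4) markers had no called gene by limma, with 0, 2 and 1 of them at an unadjusted p under 0.05. The leukocyte genes were CD68, at a mean signal of 9.06 with a difference of 0.28, and CD14 with -0.17. In the whole series, 12408 of 67528 features and 5527 of 22465 genes with 1 symbol were under that unadjusted p. There were no detection calls, and 8 members had a mean below the median of the background controls: LAMA2, LAMA4, LAMB4, ITGA4, ITGA8, ITGB6, COL10A1 and COL21A1. The background controls spanned 2.17 to 11.67, so a member above their median is not thereby shown to be expressed.

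Irradiated cells had higher signals of 3 collagen chains (COL8A1, COL4A5, COL4A6) and 3 laminin chains (LAMA1, LAMB2, LAMB1), and no integrin was called in either direction. The 6 changes were small, from 1.15-fold for LAMB1 to 1.46-fold for COL8A1. Of the 76 members, 6 (7.89%) were called, against 5.05% of all features and 9.16% of genes with 1 symbol, so the share called was near the background. All 6 were higher, where 2.25% of all features and 3.65% of genes with 1 symbol were called higher and 5.52% of those genes lower. No member was called lower by limma with all 6 arrays and all 67528 features, where 2.8% of all features were. At an unadjusted p under 0.05, 2 members were lower, against 5131 of 67528 features and 2781 of 22465 genes with 1 symbol. The trended and the unmoderated tests called 0 members lower as well, and 1 member (ITGA2) was called lower when features below the background median were left out. The median difference was 0.03 over the members, 0.03 over all features and 0.01 over genes with 1 symbol. Without control 3 it was 0.01 over the members and 0.02 over all features. The groups did not overlap for 26 members, 21 higher and 5 lower. Such separation was found for 24.6% of all features (15.2% higher, 9.41% lower) and for 35.1% of genes with 1 symbol (19.1% higher, 16% lower), so the members' 26 of 76 were near that background.

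**Figure D1:**
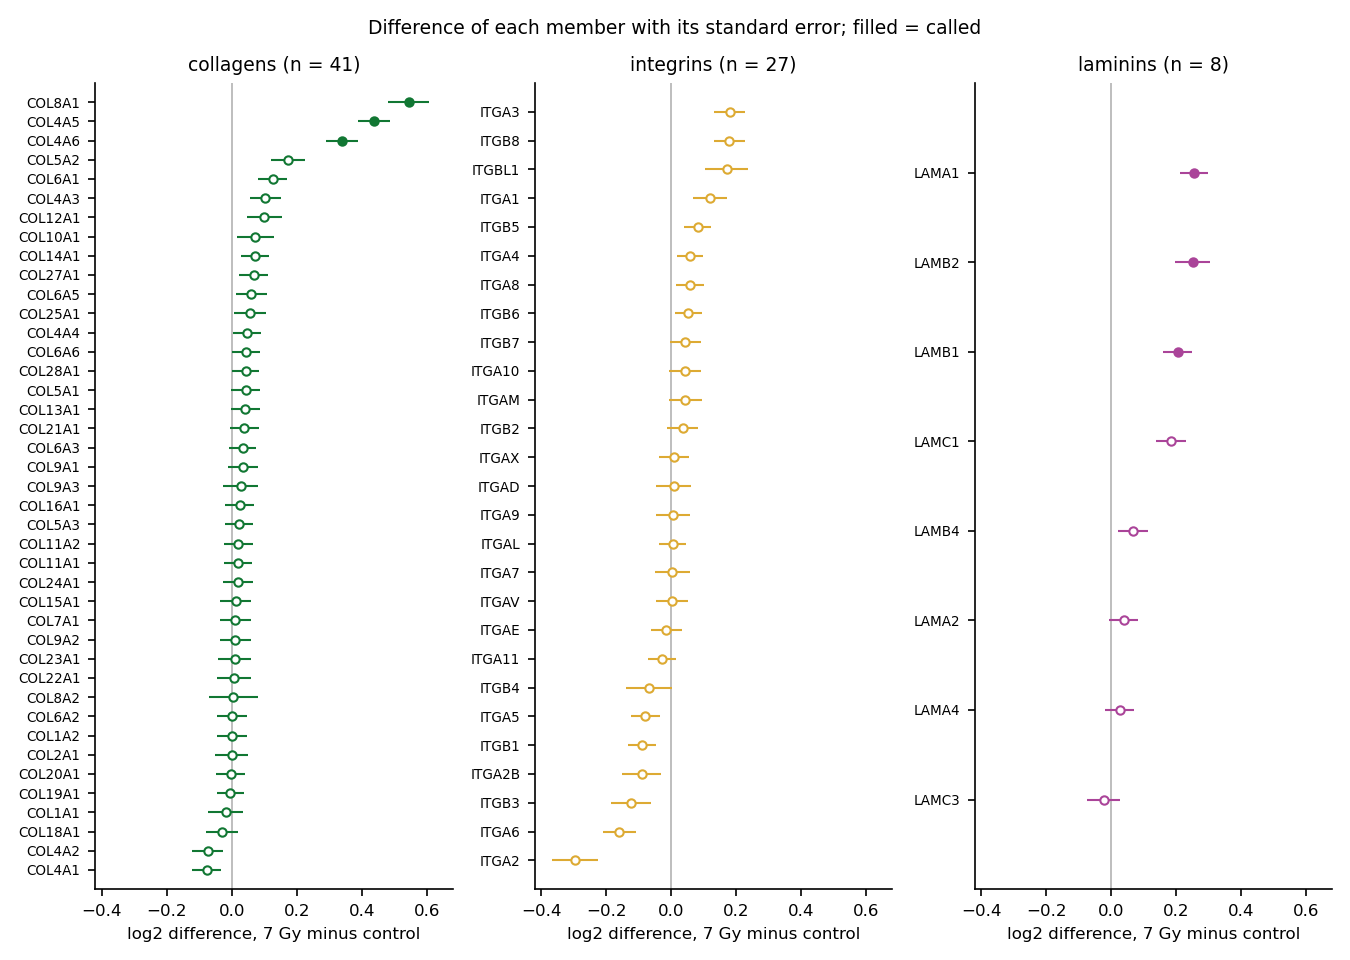
Log2 difference (7 Gy minus control, x axis) of each of the 76 members by family, with bars of 1 standard error and filled points for called members. The called points are COL8A1, COL4A5 and COL4A6 among the collagens and LAMA1, LAMB2 and LAMB1 among the laminins, and the integrin panel has none.

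**Figure D2:**
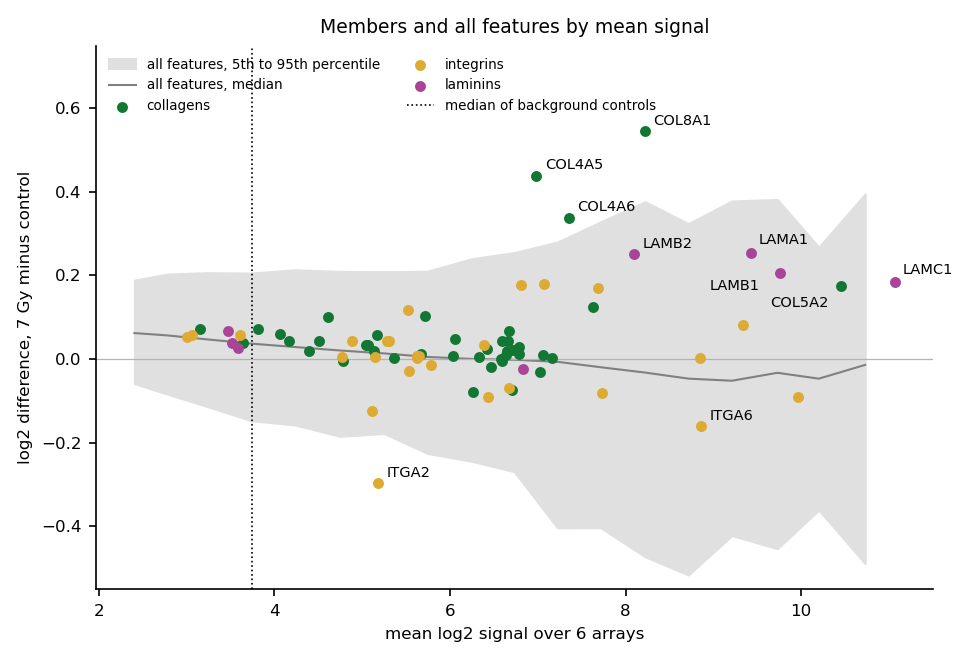
Log2 difference (y axis) against mean log2 signal over the 6 arrays (x axis) for the members, with the 5th to 95th percentile of all features in grey. COL8A1, COL4A5 and COL4A6 lie above the grey band and ITGA2 below it, while the called laminins LAMA1, LAMB1 and LAMB2 lie inside it and most members lie close to 0.

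Type IV collagen forms the network of the basement membrane, and its 6 chains are coded by 3 pairs of genes, each pair side by side and read in opposite directions. The X-linked pair rose together. COL4A5 had log2 signals of 6.80, 6.74 and 6.76 on the control arrays and 7.27, 7.15 and 7.20 on the irradiated arrays. Every irradiated array was above every control array, and the difference was 0.44 (SE 0.05, limma adjusted p = 0.00385), a 1.36-fold increase with a 95% confidence interval on the log2 scale of 0.32 to 0.56. COL4A6, which codes for the chain of smooth muscle and some epithelial basement membranes that assembles with the COL4A5 chain, read 7.21, 7.18 and 7.16 in control cells and 7.58, 7.46 and 7.51 after irradiation. Again the groups did not overlap, with a difference of 0.34 (SE 0.05, limma adjusted p = 0.0104, 1.26-fold). The call of COL4A5 held on leaving out any 1 array, and that of COL4A6 was lost without control 2 (adjusted p = 0.0515).

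The other type IV pairs were not called. COL4A1 and COL4A2, the chains of nearly all basement membranes, had differences of -0.08 and -0.07 (limma adjusted p = 0.426 and 0.480), and 95% confidence intervals of -0.18 to 0.03 and -0.19 to 0.04. COL4A3 and COL4A4, chains best known from kidney and lung basement membranes, had 0.10 and 0.05 (adjusted p = 0.311 and 0.619). Taken within each array, the log2 ratio of COL4A5 to COL4A1 was higher by 0.52 in irradiated cells, and that of COL4A6 to COL4A2 by 0.41. The groups overlapped in neither ratio, and the exact permutation p was 0.1 for each (two-sided), the smallest that 3 arrays against 3 allow; these contrasts were chosen after the values were seen.

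The start regions of the pair that rose are shown because the genes lie back to back. In the RefSeq table (GRCh38.p14), the COL4A5 start and the nearer of 2 COL4A6 starts are 380 bases apart on opposite strands, so their windows (250 bases before to 50 after each start) share 121 bases. The COL4A5 window is chrX:108439588-108439887 on the plus strand and the COL4A6 window chrX:108439409-108439708 on the minus strand, each printed 5′ to 3′ with CCAAT, read on either strand, in capitals.
COL4A5: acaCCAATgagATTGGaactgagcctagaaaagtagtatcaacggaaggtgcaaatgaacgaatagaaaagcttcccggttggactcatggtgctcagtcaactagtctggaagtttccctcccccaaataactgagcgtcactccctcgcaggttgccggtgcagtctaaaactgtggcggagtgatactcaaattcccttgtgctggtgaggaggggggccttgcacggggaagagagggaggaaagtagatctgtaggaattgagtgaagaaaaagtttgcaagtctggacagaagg
COL4A6: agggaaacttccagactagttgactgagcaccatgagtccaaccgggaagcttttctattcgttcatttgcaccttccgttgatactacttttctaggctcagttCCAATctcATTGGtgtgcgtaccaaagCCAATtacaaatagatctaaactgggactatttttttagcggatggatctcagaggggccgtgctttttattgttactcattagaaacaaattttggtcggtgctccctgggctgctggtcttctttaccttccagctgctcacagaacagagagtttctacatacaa
A CCAAT and an inverted ATTGG with 3 bases between them begin at positions -247 and -239 from the COL4A5 start. The same letters, seen from the other strand, begin at -145 and -137 from the COL4A6 start, where a further CCAAT begins at -118. Of all 35116 promoter windows, 34.6% hold CCAAT on either strand, so such matches are common. The starts of COL4A1 and COL4A2 are 127 bases apart and those of COL4A3 and COL4A4 419, and a back-to-back arrangement is thus shared with the pairs that were not called.

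COL8A1 showed the largest difference among the members. It codes for a chain of the short-chain, network-forming type VIII collagen known from blood vessel walls and the membrane behind the cornea. Control arrays gave 7.96, 7.84 and 8.06, and irradiated arrays 8.50, 8.46 and 8.53. The control values were the more scattered (SD 0.11 against 0.04, n = 3), but none reached the irradiated values, and the difference was 0.54 (SE 0.06, limma adjusted p = 0.00445), which is 1.46-fold. The call held on leaving out any 1 array. COL8A2, the gene for the partner chain, had a difference of 0.01 (adjusted p = 0.980, 95% confidence interval -0.17 to 0.18). Within arrays, the log2 ratio of COL8A1 to COL8A2 was higher by 0.54 after irradiation, without overlap (exact permutation p = 0.1, two-sided, contrast chosen after the values were seen). COL10A1, the other short-chain collagen, known from growth plate cartilage, had a difference of 0.07 at signals below the background median.

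The other collagen classes had no called member. The 10 fibrillar collagens had a median difference of 0.02 and 0 calls in the limma, trended and unmoderated tests. A single one was under an unadjusted p of 0.05, COL5A2, a chain of the type V collagen that regulates fibril diameter. Its signals were 10.41, 10.35 and 10.34 in control cells and 10.62, 10.48 and 10.53 after irradiation. The groups did not overlap, but the difference of 0.17 (SE 0.05, limma adjusted p = 0.128) did not pass. The interstitial type I chains COL1A1 and COL1A2 had -0.02 and 0.00, and the type V partners COL5A1 and COL5A3 had 0.04 and 0.02. The cartilage collagen COL2A1 had 0.00.

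Among 7 collagens of the type VI, VII and XXVIII class, which form beaded filaments and anchoring fibrils, differences ran from 0.00 to 0.13, and limma called 0, as did the trended and unmoderated tests (1 was under an unadjusted p of 0.05). COL6A1, a chain of the microfibril-forming type VI collagen, had control values of 7.56, 7.57 and 7.55 and irradiated values of 7.73, 7.69 and 7.64. The groups did not overlap, yet its difference of 0.13 (SE 0.04, limma adjusted p = 0.191) did not pass. COL6A2 and COL6A3, the chains that join COL6A1 in the type VI trimer, had 0.00 and 0.03. COL7A1, the anchoring fibril collagen of skin, had 0.01. The 10 fibril-associated (FACIT) collagens ranged from -0.00 to 0.10, the 3 transmembrane collagens from 0.01 to 0.06, and the multiplexins COL15A1 and COL18A1, the latter the source of endostatin, had 0.01 and -0.03. In these 3 classes no member was below an unadjusted p of 0.05, and limma and its trended and unmoderated forms called 0.

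**Figure D3:**
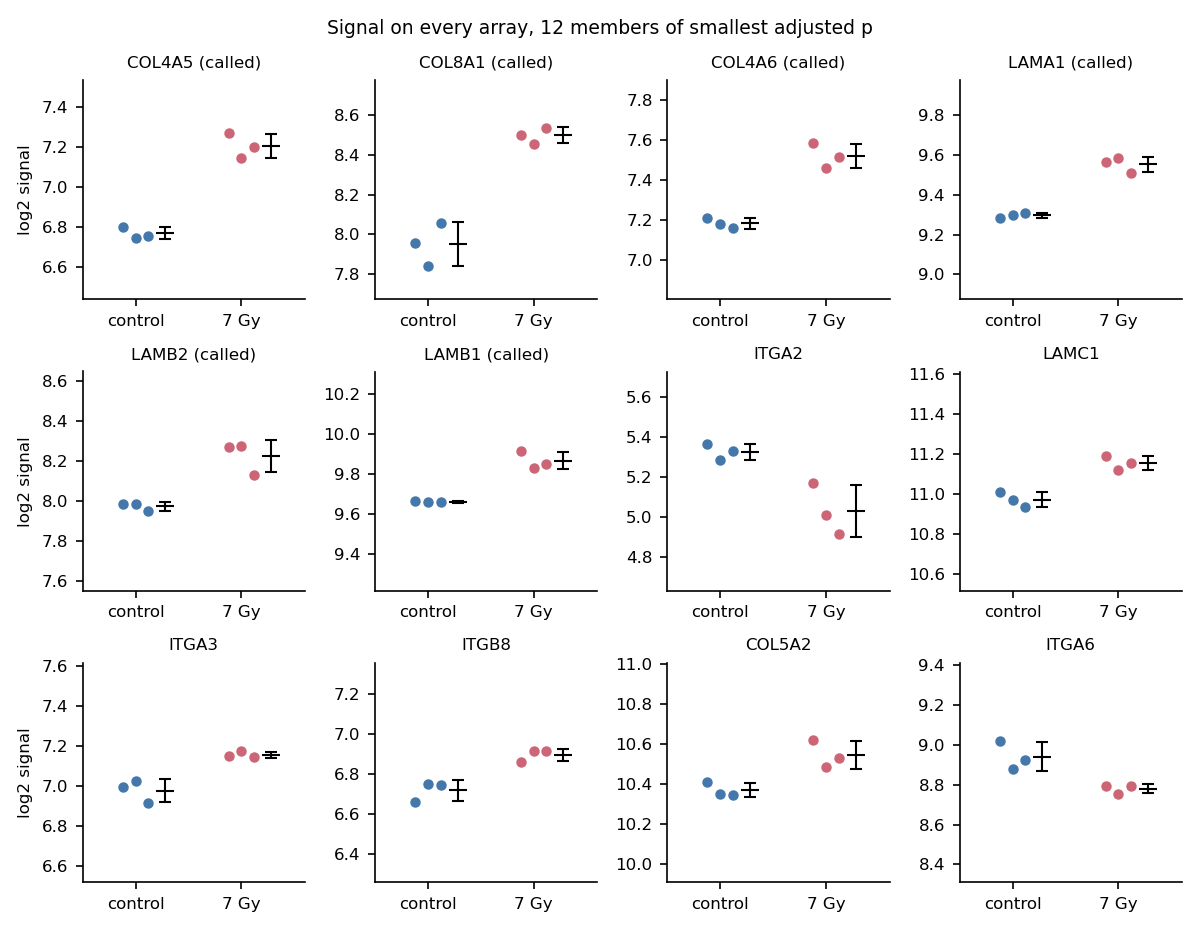
Log2 signal (y axis) on each array for the 12 members of smallest adjusted p, with control arrays in blue, 7 Gy arrays in red and bars for mean ± SD (n = 3). The groups do not overlap in any of the 12 panels, and every panel spans the same height of log2 signal; ITGA2 and ITGA6 are the panels in which the irradiated arrays are lower.

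Of the 8 laminin chains, 3 rose, and the other 5 were not called, where 2.25% of all features and 3.65% of genes with 1 symbol rose. The median difference of the 8 was 0.13 against 0.03 over all features and 0.01 over genes with 1 symbol. LAMA1, the alpha chain of the laminin of early embryonic basement membranes, had values of 9.28, 9.30 and 9.31 on control arrays and 9.56, 9.58 and 9.51 after irradiation. All irradiated arrays were higher, by a mean of 0.25 (SE 0.04, limma adjusted p = 0.0197, 1.19-fold). LAMB1, the beta chain that pairs with it, gave 9.67, 9.66 and 9.66 in control cells and 9.92, 9.83 and 9.85 in irradiated cells. The control arrays were almost identical for this gene, and the difference was 0.21 (SE 0.04, limma adjusted p = 0.0463, 1.15-fold). LAMC1, the gamma chain found in most laminins, had 11.01, 10.97 and 10.94 in control cells and 11.19, 11.12 and 11.16 in irradiated cells. It did not pass with all arrays and features (difference 0.18, SE 0.05, limma adjusted p = 0.0742, interval 0.08 to 0.29), although the groups did not overlap, and it was called with a trended prior variance (adjusted p = 0.0344) and when features below the background median were left out (0.0452).

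LAMB2, the beta chain of laminins at the neuromuscular junction and in the kidney glomerulus, had signals of 7.98, 7.99 and 7.95 in control cells and 8.27, 8.27 and 8.13 after irradiation. The third irradiated array was the lowest of its group but still above all controls, and the difference was 0.25 (SE 0.05, limma adjusted p = 0.0445, 1.19-fold). LAMA1 and LAMB2 kept theirs without irradiated 3 and lost them without any other array (adjusted p up to 0.0926 and 0.141), and LAMB1 was not called whichever array was left out (0.0906 to 0.151). LAMB1 also did not pass after quantile normalization (0.0724) or median centring (0.0753), and LAMB2 not after median centring (0.0607) or by the unmoderated test (0.0999).

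The remaining laminins had small differences. LAMC3, a gamma chain with few known tissues, had -0.02 (limma adjusted p = 0.857). LAMA2, the muscle laminin chain, LAMA4, the endothelial chain, and LAMB4 had 0.04, 0.03 and 0.07 at signals below the background median. LAMB4 is the chromosome 7 neighbour of LAMB1 with no protein-coding gene between them.

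The windows of both beta chains that rose are printed for comparison with the collagen pair, with the GC box (GGGCGG, or CCGCCC when read on the other strand) in capitals. They are chr7:108003112-108003411 for LAMB1 and chr3:49133001-49133300 for LAMB2, both on the minus strand of GRCh38.p14 (RefSeq).
LAMB1: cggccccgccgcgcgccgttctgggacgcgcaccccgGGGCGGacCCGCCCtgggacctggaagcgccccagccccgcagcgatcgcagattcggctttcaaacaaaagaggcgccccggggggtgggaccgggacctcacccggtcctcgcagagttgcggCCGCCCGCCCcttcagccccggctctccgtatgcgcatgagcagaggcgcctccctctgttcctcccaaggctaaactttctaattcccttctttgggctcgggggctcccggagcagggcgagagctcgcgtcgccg
LAMB2: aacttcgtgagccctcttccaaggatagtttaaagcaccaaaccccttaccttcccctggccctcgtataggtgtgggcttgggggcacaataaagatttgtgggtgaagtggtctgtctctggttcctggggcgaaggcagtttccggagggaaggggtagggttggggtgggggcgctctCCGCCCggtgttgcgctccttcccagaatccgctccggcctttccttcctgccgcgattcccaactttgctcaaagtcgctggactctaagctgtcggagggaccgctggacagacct
LAMB1 has 4 matches, of which the pair nearest the start overlap by 2 bases, and LAMB2 has 1. The LAMB1 window has a GC content of 71.0% and the LAMB2 window 58.7%, against 49.3% for COL4A5 and 43.7% for COL4A6. A GC box is held by 45% of all windows and by 54.9% of the 71 windows found for 54 of the members. The window letters were also searched for TATAAA, held by 11.5% of all windows and by 12.7% of member windows, and for a p53 half-site of 10 bases, held by 6.63% of all windows. None of the 71 member windows held that half-site, which says only that it is not written in these 300 bases. COL8A1 and LAMA1, which also rose, had no window, so their start regions were not searched for any of these motifs.

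No integrin passed the test. With all 6 arrays and all 67528 features, 0 of 27 integrin symbols were called by limma and 0 by its trended and unmoderated forms. Leaving out features below the background median gave 1 (ITGA2, lower). Limma called 5.05% of all features and 9.16% of genes with 1 symbol, so 0 of 27 was near the background. Its trended form called 4150 of the 67528 features and the unmoderated test 2279. Under an unadjusted p of 0.05 were 5 of the 27 (3 higher and 2 lower), against 12408 of 67528 features and 5527 of 22465 genes with 1 symbol. The median difference of the 27 was 0.01, -0.00 after quantile normalization or without control 3, and -0.01 after median centring. Its sign thus depended on the scaling and on 1 array. The range was from -0.30 for ITGA2 to 0.18 for ITGA3.

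Among receptors for laminin, the alpha subunits ITGA3 and ITGA6 differed in sign. ITGA3, the subunit of a laminin receptor of epithelial cells, had 6.99, 7.02 and 6.91 in control cells and 7.15, 7.17 and 7.14 after irradiation, a difference of 0.18 (SE 0.05, limma adjusted p = 0.0887). ITGA6, which pairs with ITGB4 in hemidesmosomes, had 9.02, 8.88 and 8.92 in control cells and 8.80, 8.75 and 8.79 after irradiation, a difference of -0.16 (SE 0.05, limma adjusted p = 0.155). The groups did not overlap for either gene, and neither passed. ITGB4 had -0.07 and the muscle laminin receptor subunit ITGA7 had 0.00.

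The collagen receptor subunit ITGA2 had the most negative difference. Its signals were 5.37, 5.29 and 5.33 on control arrays and 5.17, 5.01 and 4.91 on irradiated arrays. All 3 irradiated arrays were lower, with more scatter than the controls (SD 0.13 against 0.04), and the difference of -0.30 (SE 0.07) had a limma adjusted p of 0.0656. The gene was called lower without irradiated 1 (0.0273) and when features below the background median were left out (0.0456). The other collagen-binding subunits ITGA1, ITGA10 and ITGA11 had 0.12, 0.04 and -0.03 (limma adjusted p = 0.286, 0.712 and 0.794).

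Receptors for the RGD motif of fibronectin and vitronectin showed little difference. ITGAV, the shared alpha subunit of several of them, had 8.84 ± 0.04 in control cells and 8.85 ± 0.06 in irradiated cells (mean ± SD, n = 3), a difference of 0.00 with a 95% confidence interval of -0.12 to 0.12. ITGA5, the fibronectin receptor subunit, had -0.08 (limma adjusted p = 0.410), ITGA8 0.06 and the platelet subunit ITGA2B -0.09. Of the beta subunits that pair with ITGAV, ITGB8, of a receptor that activates latent TGF-beta, had 6.66, 6.75 and 6.74 in control cells and 6.86, 6.91 and 6.91 in irradiated cells. These groups did not overlap, and the difference of 0.18 (SE 0.05, limma adjusted p = 0.0937) did not pass. ITGB5 had 0.08, ITGB3 had -0.12, and ITGB6, below the background median, had 0.05.

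ITGB1, the beta subunit of most matrix receptors, had 10.04, 10.01 and 9.99 in control cells and 9.93, 9.89 and 9.94 after irradiation. The irradiated arrays were all lower, by 0.09 (SE 0.04), and the limma adjusted p was 0.330. A pair of dimmer features with the same symbol had 0.16 and 0.07 (adjusted p = 0.357 and 0.605), so the features of this gene disagreed in sign, and the mean over the 3 had 0.05. Integrins of the leukocyte and alpha 4/9 class (ITGA4, ITGA9, ITGAD, ITGAE, ITGAL, ITGAM, ITGAX) ran from -0.02 to 0.06, and the leukocyte beta subunits ITGB2 and ITGB7 had 0.03 and 0.04. ITGBL1 had 7.56, 7.56 and 7.71 in control cells and 7.86, 7.70 and 7.76 in irradiated cells, which overlap (difference 0.17, SE 0.07, limma adjusted p = 0.225).

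**Figure D4:**
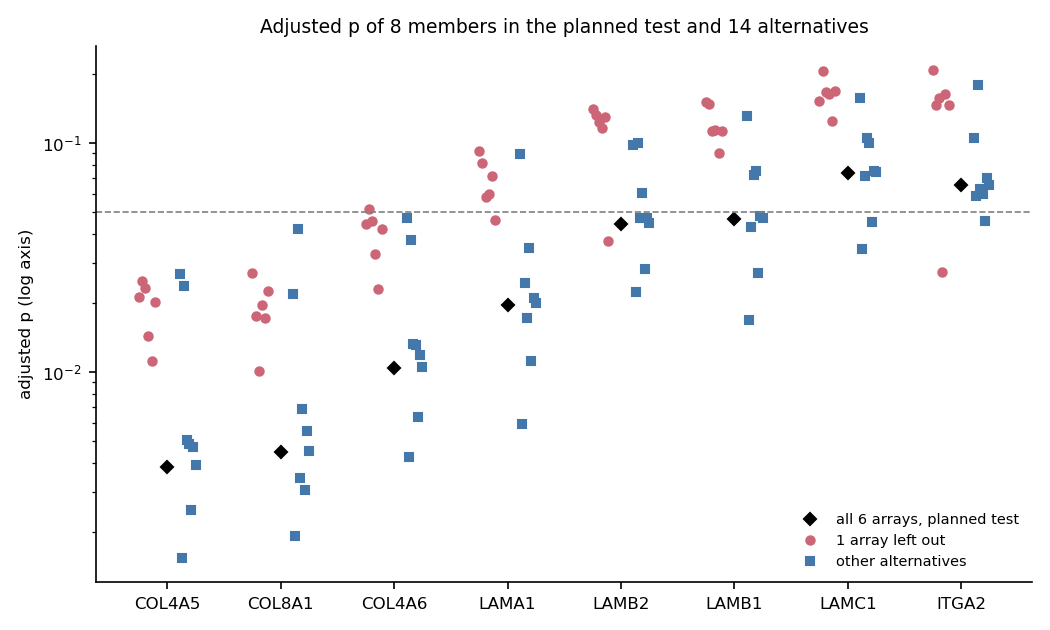
Adjusted p (log axis) of 8 members in the planned test with all arrays (diamonds), on leaving out 1 array (circles) and under the other alternatives (squares), with the threshold of 0.05 dashed. COL4A5 and COL8A1 stay below the line in all 14 alternatives, COL4A6 crosses it once, and the laminins and ITGA2 lie on both sides.

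The members were set beside other genes of matrix assembly and adhesion, in 5 lists of 124 measured genes that hold no collagen, laminin or integrin. Of these, 10 rose and 8 fell (14.5%, against 5.05% of all features and 9.16% of genes with 1 symbol). By list, the share called was 26.1% of the matrix partners, 21.9% of the adhesion complex, 13.3% of the receptors, 6.67% of collagen maturation and 4.17% of the proteases and inhibitors. Of 23 basement membrane and matrix partners, 6 rose and the other 17 were not called, with a median of 0.05. Among those not called, NID1 and NID2 had 0.03 and 0.01, SPARC had -0.04 and AGRN had 0.13. CCN1 had the largest difference of those not called, 0.28 (limma adjusted p = 0.0601), and its groups did not overlap.

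FBN1, the microfibril protein fibrillin, had 6.64, 6.61 and 6.66 in control cells and 7.26, 7.19 and 7.20 in irradiated cells, a difference of 0.58 (SE 0.05, limma adjusted p = 9.99e-04). CCN2, a secreted matricellular protein also called CTGF, rose by 0.58, NTN4, a laminin-related netrin of basement membranes, by 0.39, and HSPG2, the heparan sulfate proteoglycan perlecan, by 0.25. TGFBI and fibronectin (FN1), named after their values were seen, rose by 0.23 and 0.20. The calls of FBN1, NTN4 and CCN2 held on leaving out any 1 array, and those of HSPG2, TGFBI and FN1 were lost whichever array was left out (adjusted p from 0.0572 to 0.179). CCN2 did not pass the unmoderated test (0.0634), and after quantile normalization TGFBI and FN1 did not pass, with the FN1 difference down to 0.12. FN1 also did not pass after median centring (0.0820) or with all features of the table (0.0505).

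Of 30 genes of collagen maturation, 1 rose and 1 fell, with a median of -0.02. COLGALT1, which adds galactose to collagen hydroxylysine, fell by 0.40 (SE 0.04, limma adjusted p = 0.00334), from 9.25, 9.20 and 9.20 to 8.83, 8.83 and 8.80. FKBP10, a collagen chaperone of the endoplasmic reticulum, rose by 0.26 (adjusted p = 0.0171), and this call was lost whichever array was left out (0.0503 to 0.0848).

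Of 15 non-integrin receptors and integrin partners, 2 fell. The heparan sulfate co-receptor syndecan-4 (SDC4) fell from 7.48, 7.56 and 7.46 to 6.96, 7.13 and 7.01, by 0.47 (SE 0.06, limma adjusted p = 0.00603). CD47, the integrin-associated protein, fell by 0.37 (adjusted p = 0.0260), and was not called without control 1, control 2, control 3 or irradiated 3 (up to 0.110). The other 13 were not called, and the median of the list was 0.00.

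In the adhesion complex that links integrins to actin, 3 of 32 genes rose and 4 fell, with a median of -0.02. The scaffold gene NEDD9 rose by 0.29, the leukocyte kindlin FERMT3 fell by 0.30, and the integrin-binding proteins ITGB1BP1 and ITGB3BP (the latter a centromere protein as well) fell by 0.28 and 0.26. ZYX and TNS3 rose by 0.22 and 0.25 and ACTN4 fell by 0.25, a trio picked for the text once the values were known. Adjusted p ran from 0.0136 for NEDD9 to 0.0449 for TNS3 (limma). On leaving out 1 array, NEDD9 and FERMT3 kept their calls without irradiated 1 or irradiated 2, TNS3 without control 3, ACTN4 without irradiated 1 and ITGB1BP1 without irradiated 2 only, and ZYX and ITGB3BP in no fit (all 7 genes up to 0.165). The unmoderated test also did not call ZYX, TNS3, ITGB1BP1, ITGB3BP or, among the receptors, CD47, quantile normalization ended the call of ACTN4, and median centring those of ZYX and TNS3. Of 24 matrix proteases and inhibitors, 1 fell, the membrane-anchored metalloprotease MMP16, from 6.11, 6.07 and 6.13 to 5.77, 5.77 and 5.76 (difference -0.34, SE 0.04, limma adjusted p = 0.00531).

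**Figure D5:**
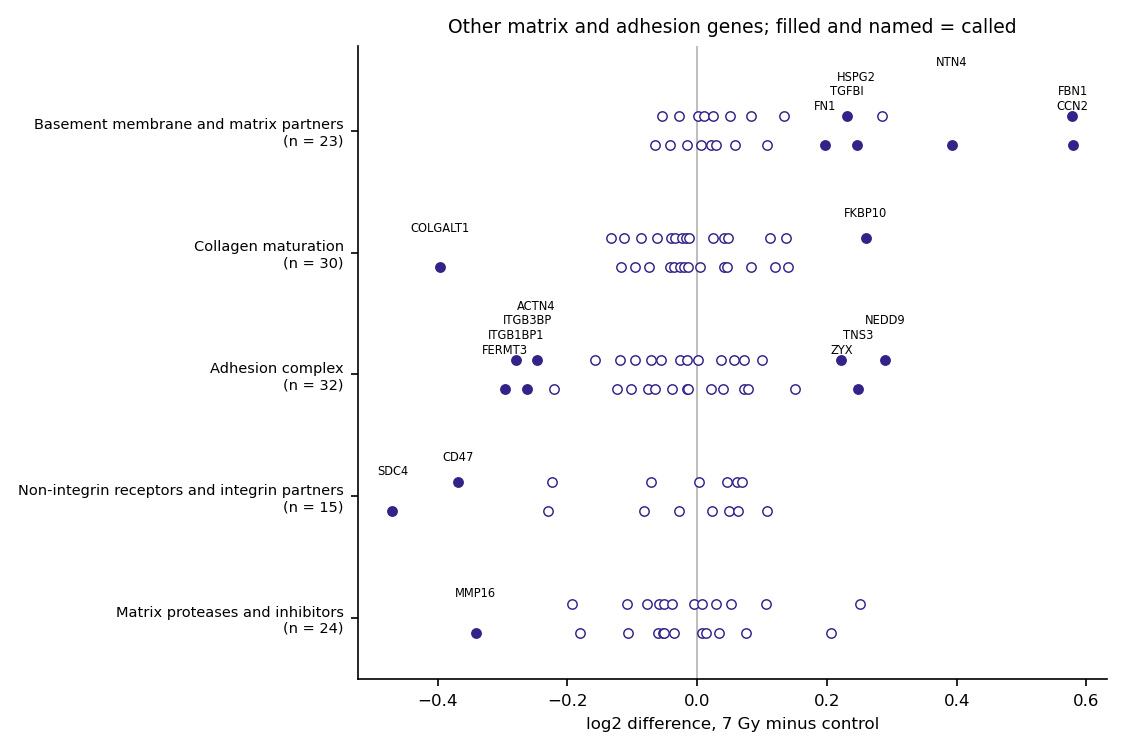
Log2 difference (7 Gy minus control, x axis) of 124 other matrix and adhesion genes in 5 lists, with called genes filled and named. The called matrix partners lie to the right of 0, both called receptors and the called protease to the left, and the adhesion complex has called genes on both sides.

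Collagens are also fibroblast products, so the fibroblast markers that are no members are given here. Of 8 markers, 1 rose, ACTA2, the smooth muscle actin gene, from 7.08, 7.08 and 6.83 to 7.92, 7.89 and 7.86 (difference 0.89, SE 0.07, limma adjusted p = 0.00119). All 8 had a positive difference, against 60.7% of all features and 56.3% of genes with 1 symbol. The groups did not overlap for 4 of them (ACTA2, DCN, THY1 and PDGFRA), all higher. Such separation was found for 15.2% of all features and 19.1% of genes with 1 symbol. Dim features leaned positive across the array, with a median difference of 0.06 at signals near 2.77 and 0.05 near 3.23. The mean signal of the list was 4.63 to 4.69 on control arrays and 4.83 to 4.87 on irradiated arrays, a difference of 0.18 that was 0.08 without ACTA2. THY1, PDGFRB, TAGLN and PDGFRA had control means of 5.68, 5.91, 5.91 and 3.90 and irradiated means of 5.75, 5.96, 5.99 and 3.97, above the background median, and were not called. The defining fibroblast genes DCN, LUM and FAP lay below the background median of 3.74 in both groups, with differences of 0.12, 0.15 and 0.04 that did not pass. What part the fibroblast markers have in the collagen and laminin values was not tested.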

How the data were processed

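The deposited table held 70523 log2 gene-level signals for each of 6 arrays. An RMA signal per gene is what the sample descriptions name, per the labels, while the submitters' processing notes name MAS5 with no version, so which summary method the authors used is not settled; values were used as deposited. The 67528 transcript cluster features were fitted in R 4.3.3 with lmFit and eBayes of limma 3.58.1 (irradiated minus control, 2 groups of 3 arrays), and the fit was tested on simulated data. Leaving out the other 2995 features was tried against all features. Gene symbols came from the platform table; 5 features with several symbols that include a family symbol were not used, and 7 family symbols in RefSeq were not analysed here. Promoter windows came from RefSeq (GRCh38.p14).

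Members and lists were chosen with earlier results of these data known. The text names called members, the 5 brightest of each family, partner chains of named trimers and heterodimers, and up to 4 called genes per further list; it also names the class members of each list where counts are described, chosen after their values were seen. Alternatives were each array left out, a replicate block, a trended prior, no moderation, quantile normalization, median centring, a filter on dim features, all features, and the mean of a symbol's features. Depth does not apply to arrays, and their number limits the precision.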

Additional observations from a re-analysis of the deposited data

How the results depend on the processing

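With the planned test, 6 members were called higher, 0 lower, and 3411 features in all. On leaving out 1 array, these counts were 2 to 5, 0 to 1 and 1559 to 2379, each from fewer arrays. With the replicate number as a block, 3 members (COL4A5, COL4A6 and COL8A1) and 1598 features were called. The titles number replicates 1 to 3 in both groups. Same-numbered arrays did not deviate together (correlations -0.01, -0.07 and -0.04), but values for differently numbered arrays were not set beside them. With 3 arrays per group, these values cannot decide whether the numbers pair the samples. The block also moved LAMA1, LAMB1 and LAMB2 past the threshold (adjusted p = 0.0894, 0.131 and 0.0981), with unchanged differences, and ended the calls of the matrix and adhesion genes FKBP10, HSPG2, FN1, TGFBI, CD47, FERMT3, ZYX, NEDD9, TNS3, ACTN4, ITGB1BP1 and ITGB3BP. Leaving out features below the background median gave 1 member called lower (ITGA2). COL4A5, COL4A6 and COL8A1 kept their calls under the trended, unmoderated, quantile, median-centred, dim-filtered, all-feature and symbol-mean settings, where 4 to 7 members were called higher. The number of features called higher moved as well, from 981 (unmoderated) to 1850 (trended), both of 67528. The dim filter tested 68 members among 44925 features, of which 1846 were called higher.

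Differences near 0 that were not called turned sign. After quantile normalization ITGA7 had -0.0028, ITGA9 -0.0152 and ITGB6 -0.000542. After median centring COL6A2 had -0.0162, ITGA7 -0.0144, ITGA9 -0.0131 and ITGAV -0.0153. With the mean of a symbol's features ITGB1 had 0.0458. On leaving out 1 array, COL6A2 ran from -0.0197 to 0.0285, ITGA7 from -0.0335 to 0.0274, ITGA9 from -0.0266 to 0.034 and ITGAV from -0.0300 to 0.0242. The cause was not tested. Members with a positive difference numbered 60 of 76 (78.9%, against 60.7% of all features and 56.3% of genes with 1 symbol), 50 after quantile normalization, 45 after median centring, 43 without control 3 and 48 without irradiated 1. Without detection calls, changes of dim features may be understated.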

Other observations

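The 7 features of COL11A2, a fibrillar collagen gene of the major histocompatibility region, lie on the reference chromosome and on alternative versions of that region, and their values are close to copies of each other. The brightest had a log2 difference of 0.02, and the other 6 ran from 0.01 to 0.03, so they are 1 measurement and were counted once. COL27A1, a fibrillar collagen of cartilage, had a brighter feature at 6.67 with a difference of 0.07 and a dimmer one with -0.08, and neither was called (limma adjusted p = 0.488 and 0.429).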
